A study of Arabidopsis thaliana with 12 samples.

Results

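The abscisic acid core described here is a set of 10 Arabidopsis thaliana genes chosen by name and locus. It holds the synthesis gene NCED3 (AT3G14440), the phosphatase genes ABI1 (AT4G26080), ABI2 (AT5G57050), HAB1 (AT1G72770), PP2CA (AT3G11410), HAI1 (AT5G59220) and HAI2 (AT1G07430), and the receptor genes PYL4 (AT2G38310), PYL5 (AT5G05440) and PYL6 (AT2G40330). Values were read for 9 of the 10, out of 20233 genes in the expression table, and PYL6 was not analysed here. The study infiltrated seedlings under vacuum at an age of 2 to 3 weeks and took RNA 6 h later, with leaf as the labelled tissue. The 4 groups of 3 libraries each received 10 µM valinomycin, bacteria of the strain Pseudomonas syringae pv. tomato DC3000 (DC3000 for short), both treatments together, or a mock treatment. Valinomycin is an ionophore that lets potassium cross membranes, and DC3000 is a pathogen of tomato and Arabidopsis leaves. The sources used here give no ecotype, bacterial dose or mock solution. The labels do not state whether the 3 libraries of a group are separate plants or cultures, so a p-value here covers the spread between the libraries alone, which may be technical.

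Abscisic acid is the hormone by which plants close stomata and adjust gene expression when water is short. NCED3 cleaves an epoxycarotenoid in the plastid, the rate-limiting step of the hormone's synthesis under drought. Receptors of the PYR/PYL family bind the hormone and then inhibit the clade A protein phosphatases, which otherwise hold the SnRK2 kinases inactive. Freed kinases phosphorylate bZIP transcription factors of the ABF and ABI5 type, which bind abscisic acid response elements (ABRE) with the core ACGTG. The phosphatase genes are themselves known targets of this pathway in seedlings, and DC3000 is known to raise abscisic acid signalling in infected Arabidopsis leaves.

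Levels are in FPKM (fragments scaled to transcript length and to the library's total), a unit inferred from the values. The depth of the libraries is unknown, so no counting interval is given. Differences are log2 changes of FPKM + 1 with their standard errors, which understate the fold of genes with low values. Each was tested with limma over the 18048 genes whose mean reached 1 FPKM, and a gene was called where the Benjamini-Hochberg adjusted p was under 0.05. All 9 genes passed that filter on low values. Orders of groups follow the group mean of log2(FPKM + 1). The 3 comparisons with mock share the same 3 mock libraries, so their changes are set side by side and not counted as independent. RNA came from whole pieces of tissue, in which fewer cells of a type and less RNA per cell cannot be told apart.

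Facts of the whole series bear on every comparison with mock. All 10 clock genes checked were called against mock in each treated group (7 higher and 3 lower). Their median absolute log2 change was 3.31 with valinomycin, 3.31 with DC3000 and 3.53 with both treatments. Between treated groups it was 0.26 for both against DC3000, 0.28 for both against valinomycin and 0.49 for valinomycin against DC3000. LHY averaged 9.1, 1.3 and 2.8 FPKM with valinomycin, DC3000 and both, against 266.5 in mock. PRR5 averaged 42.1, 56.9 and 53.4 FPKM in the same groups, against 0.653 in mock. In comparisons with mock, treatment and the difference in clock genes cannot be told apart. All 5 mesophyll markers were called lower in each treated group. Their summed level was 18630 to 21080 FPKM with valinomycin, 19010 to 22230 with DC3000, 13080 to 15180 with both treatments and 35190 to 38550 in mock. Summed guard cell markers, 6 genes, stood at 49.0 ± 6.58, 42.8 ± 1.29 and 39.99 ± 2.39 FPKM with valinomycin, DC3000 and both, and at 71.6 ± 11.2 in mock (here and below, group values are mean ± SD, n = 3). That fall was largely one of GC1, which averaged 19.5 ± 5.84, 10.8 ± 4.38 and 13.3 ± 1.54 FPKM in the treated groups and 45.6 ± 6.25 in mock. GC1 was the 1 of 5 tested guard cell markers called lower in each treated group, and FAMA was called higher with valinomycin and with both. Summed phloem and xylem markers, 7 genes, stood at 119.8 ± 2.50, 107.3 ± 11.1 and 90.7 ± 8.96 FPKM with valinomycin, DC3000 and both, and at 135 ± 12.8 in mock. Of these, 2 were called lower with valinomycin, 3 with DC3000 and 3 with both, SULTR2.1 and XCP1 in each. APL was called higher with DC3000 and with both. The part of these markers and clock genes in the changes of the abscisic acid genes was not tested. The root marker PYK10 stood at 129 to 312 FPKM over the libraries although leaf is the labelled tissue. CASP1, a marker of the root endodermis, reached at most 1.20 FPKM, and the root marker PHT1.1 at most 2.44 FPKM. The other root markers listed, COBL9 and NRT2.1, have no values in the expression table and were not analysed here.

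The promoters of these genes, taken as the 250 bases before the annotated start in TAIR10.1 (RefSeq), differ in their ABRE cores. The letters ACGTG were searched on both strands, so that a palindromic CACGTG (the G-box) counts as 2 matches. PP2CA had 5 matches with 1 G-box among them, HAI2 had 4 and HAB1 had 1, and the windows of the other 7 genes held none, PYL6 included. That is 3 of 10 genes, and 22.9% of 27443 protein-coding promoters of the same length hold a match. The core TTGAC of the W-box, which WRKY factors of the defence response bind, was present on either strand in 6 of the 10, against 44.9% of all promoters. Below are the windows of the genes with the most ABRE cores, PP2CA and HAI2, and of NCED3 and ABI1, which were called higher than mock in all 3 treated groups and have no ABRE core there. Capitals mark ACGTG or TTGAC on either strand, and all 4 genes lie on the minus strand and are written 5′ to 3′ towards the gene. A match is a stretch of letters and was not tested as a binding site. The windows are chr3:3585851-3586100 for PP2CA, chr1:2282829-2283078 for HAI2, chr3:4834016-4834265 for NCED3 and chr4:13222377-13222626 for ABI1.
PP2CA: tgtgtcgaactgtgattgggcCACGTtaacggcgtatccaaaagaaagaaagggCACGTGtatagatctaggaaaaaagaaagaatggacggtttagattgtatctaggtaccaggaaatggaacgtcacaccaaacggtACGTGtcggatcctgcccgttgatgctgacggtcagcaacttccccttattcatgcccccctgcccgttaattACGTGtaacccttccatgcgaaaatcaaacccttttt
HAI2: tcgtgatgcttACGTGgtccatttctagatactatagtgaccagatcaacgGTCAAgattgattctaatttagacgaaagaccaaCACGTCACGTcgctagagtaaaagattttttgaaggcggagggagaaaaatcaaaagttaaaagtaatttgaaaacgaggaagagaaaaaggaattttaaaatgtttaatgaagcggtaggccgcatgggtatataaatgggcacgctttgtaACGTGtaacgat
NCED3: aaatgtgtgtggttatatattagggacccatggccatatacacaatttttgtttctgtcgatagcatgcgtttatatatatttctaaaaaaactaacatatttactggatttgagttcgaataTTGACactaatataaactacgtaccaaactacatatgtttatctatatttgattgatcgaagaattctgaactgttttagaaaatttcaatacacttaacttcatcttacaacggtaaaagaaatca
ABI1: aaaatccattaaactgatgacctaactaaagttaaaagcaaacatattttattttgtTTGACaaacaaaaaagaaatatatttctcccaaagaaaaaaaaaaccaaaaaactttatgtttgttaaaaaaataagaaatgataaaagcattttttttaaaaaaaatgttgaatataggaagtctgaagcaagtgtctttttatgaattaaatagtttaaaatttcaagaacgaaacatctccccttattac

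NCED3 was higher in all treated groups than in mock. NCED3 (chromosome 3, 4831286 to 4834015, minus strand, 1 exon) stood at 5.09, 4.66 and 3.01 FPKM in the 3 valinomycin libraries, at 7.74, 10.35 and 3.78 FPKM with DC3000 and at 6.07, 6.04 and 5.90 FPKM with both, against 0.807, 0.909 and 0.292 FPKM in mock. Every treated library lay above every mock library, and DC3000 was the group with the widest spread. NCED3 averaged 4.25 ± 1.1 FPKM with valinomycin, 7.29 ± 3.31 with DC3000, 6.00 ± 0.0934 with both and 0.669 ± 0.331 in mock, so the ratios of means to mock were 6.35, 10.9 and 8.97. The log2 change was 1.65 ± 0.27 with valinomycin (limma adjusted p = 0.000159), 2.24 ± 0.27 with DC3000 (limma adjusted p = 9.01e-06) and 2.09 ± 0.27 with both (limma adjusted p = 1.17e-05). The 3 treated groups followed the order DC3000, both, valinomycin, and no neighbours in it were called different, although the libraries with both lay just above all valinomycin libraries. Both against valinomycin gave 0.44 ± 0.27 (limma adjusted p = 0.297). Valinomycin against DC3000 gave a log2 change of -0.59 ± 0.27 (limma adjusted p = 0.124), which was called without DC3000 replicate 3 (-0.95, limma adjusted p = 0.0063).

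ABI1 was higher in all treated groups than in mock, and on the log2(FPKM + 1) scale its changes against mock were the largest of the 9. With a pseudocount of 0.1 the change with valinomycin was larger in NCED3 (2.58) and HAI2 (2.47) than in ABI1 (2.33). ABI1 (chromosome 4, 13219915 to 13222376, minus strand) encodes a phosphatase whose dominant mutant made Arabidopsis insensitive to abscisic acid. It stood at 45.1, 39.9 and 26.3 FPKM with valinomycin, at 104.5, 109.3 and 55.3 FPKM with DC3000 and at 79.6, 94.3 and 92.2 FPKM with both, against 7.61, 9.42 and 4.99 FPKM in mock. The valinomycin libraries lay between those of mock and those of the groups given bacteria, with no overlap on either side. The log2 change against mock was 2.19 ± 0.27 with valinomycin (limma adjusted p = 1.2e-05), 3.42 ± 0.27 with DC3000 (limma adjusted p = 1.18e-07) and 3.46 ± 0.27 with both (limma adjusted p = 7.95e-08). ABI1 was lower with valinomycin than with DC3000 by a log2 change of -1.22 ± 0.27 (limma adjusted p = 0.00289). The order of mean log2(FPKM + 1) was both, DC3000, valinomycin, mock. In mean FPKM, DC3000 (89.7) stood just above both (88.7). ABI1 shares exon sequence with AT4G26070 on the opposite strand, and the sources used here do not say whether counting used strand, so reads of the 2 genes in that stretch cannot be told apart. AT4G26070 averaged 7.74 ± 1.63 FPKM with valinomycin, 3.03 ± 0.326 with DC3000, 4.78 ± 0.707 with both and 2.98 ± 0.342 in mock.

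ABI2, the closest relative of ABI1, was also higher in all 3 treated groups. It stood at 11.6, 9.72 and 7.52 FPKM with valinomycin, at 11.98, 16.1 and 6.60 FPKM with DC3000 and at 7.54, 8.16 and 7.90 FPKM with both, against 3.08, 5.36 and 2.35 FPKM in mock. No treated library of ABI2 fell below the highest mock library, and the treated groups overlapped one another. The log2 change was 1.24 ± 0.28 with valinomycin (limma adjusted p = 0.00177), 1.43 ± 0.28 with DC3000 (limma adjusted p = 0.000641) and 1.00 ± 0.28 with both (limma adjusted p = 0.00582). In the order DC3000, valinomycin, both, mock, only the step to mock was called.

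HAI2, a phosphatase gene of the highly ABA-induced group, had the lowest mean of the 6 core phosphatase genes in mock. HAI2 (chromosome 1, 2280746 to 2282828, minus strand) stood at 8.90, 3.91 and 2.41 FPKM with valinomycin, at 5.55, 7.68 and 3.73 FPKM with DC3000 and at 1.3, 4.66 and 3.34 FPKM with both, against 1.47, 1.66 and 0.0905 FPKM in mock. The valinomycin and DC3000 libraries lay above all mock libraries, and replicate 1 of both treatments lay within the mock range. The log2 change was 1.51 ± 0.42 with valinomycin (limma adjusted p = 0.0082), 1.74 ± 0.42 with DC3000 (limma adjusted p = 0.00347) and 0.99 ± 0.42 with both, which was not called (limma adjusted p = 0.0551). Without mock replicate 3, the lowest library, the valinomycin call was lost (1.096, limma adjusted p = 0.061). Without replicate 1 of both treatments the change with both was called (1.36, limma adjusted p = 0.0168). The fit with a replicate block gave limma adjusted p = 0.0425 for both against mock. Among 20 alternatives for HAI2 in that comparison, 7 gave a call.

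PP2CA, a phosphatase known to act on guard cell ion channels and in germination, was called higher in the DC3000 group. PP2CA (chromosome 3, 3583782 to 3585850, minus strand) stood at 24.0, 16.9 and 13.4 FPKM with valinomycin, at 30.3, 37.4 and 17.2 FPKM with DC3000 and at 11.1, 14.7 and 13.2 FPKM with both, against 14.9, 19.6 and 10.05 FPKM in mock. DC3000 replicates 1 and 2 were above all other libraries, and DC3000 replicate 3 lay within the mock range. The log2 change with DC3000 was 0.87 ± 0.28 (limma adjusted p = 0.0194). That call was lost without DC3000 replicate 1 (limma adjusted p = 0.0652), DC3000 replicate 2 (limma adjusted p = 0.101) or mock replicate 3 (limma adjusted p = 0.109). The log2 change was 0.28 ± 0.28 with valinomycin (limma adjusted p = 0.427) and -0.15 ± 0.28 with both (limma adjusted p = 0.677), with 95% intervals of -0.32 to 0.88 and -0.74 to 0.46. In the order DC3000, valinomycin, mock, both, all neighbours overlapped and none were called different.

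HAB1 and HAI1 were called in none of the comparisons. HAB1, a phosphatase related to ABI1 that inhibits the kinase OST1, stood at 30.1, 23.5 and 11.1 FPKM with valinomycin, at 20.1, 24.5 and 13.4 FPKM with DC3000 and at 24.3, 32.4 and 25.9 FPKM with both, against 27.0, 31.4 and 19.6 FPKM in mock. All groups of HAB1 overlapped, and HAB1 had the highest mean of the 6 phosphatase genes in mock, 25.99 ± 5.99 FPKM. HAI1, like HAI2 a highly ABA-induced phosphatase gene, stood at 8.29, 7.14 and 2.57 FPKM with valinomycin, at 14.4, 14.2 and 5.82 FPKM with DC3000 and at 8.28, 14.2 and 9.38 FPKM with both, against 4.16, 8.80 and 5.89 FPKM in mock. Its log2 change with DC3000 was 0.73 ± 0.38 (95% interval -0.07 to 1.53, limma adjusted p = 0.121), and without DC3000 replicate 3 it was 1.12 and called (limma adjusted p = 0.0222). With both it was 0.69 ± 0.38 (95% interval -0.11 to 1.49, limma adjusted p = 0.125).

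PYL4 and PYL5, receptors of one subfamily, did not share one order of the groups. PYL4 (chromosome 2, 16049918 to 16051356, plus strand, 1 exon) stood at 54.6, 32.4 and 31.3 FPKM with valinomycin, at 9.91, 12.7 and 12.9 FPKM with DC3000 and at 21.7, 30.3 and 21.2 FPKM with both, against 22.1, 24.9 and 28.0 FPKM in mock. Every valinomycin library lay above every mock library, every DC3000 library lay below the libraries of all other groups, and both treatments overlapped mock. PYL4 fell with DC3000 by a log2 change of -1.02 ± 0.21 (limma adjusted p = 0.000991). With valinomycin the change was 0.60 ± 0.21 (limma adjusted p = 0.0269), a call lost without valinomycin replicate 1 (0.34, limma adjusted p = 0.143), mock replicate 1 (limma adjusted p = 0.0929) or mock replicate 2 (limma adjusted p = 0.0556), and after rescaling the libraries by median-of-ratios size factors (0.28, limma adjusted p = 0.365). With both the change was -0.05 ± 0.21, with a 95% interval of -0.49 to 0.40 (limma adjusted p = 0.861). Valinomycin stood above DC3000 by 1.62 ± 0.21 (limma adjusted p = 4e-05), and the order of levels was valinomycin, mock, both, DC3000.

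PYL5 was higher in the groups given valinomycin. PYL5 (chromosome 5, 1608988 to 1610527, plus strand, 1 exon) stood at 28.7, 18.1 and 9.84 FPKM with valinomycin, at 5.82, 6.53 and 7.02 FPKM with DC3000 and at 16.4, 21.1 and 17.9 FPKM with both, against 2.51, 4.95 and 5.72 FPKM in mock. Libraries with valinomycin in them all lay above those without it, and the DC3000 libraries lay just above mock. The log2 change was 1.82 ± 0.30 with valinomycin (limma adjusted p = 0.000184) and 1.90 ± 0.30 with both (limma adjusted p = 8.07e-05). With DC3000 it was 0.52 ± 0.30, with a 95% interval of -0.12 to 1.16 (limma adjusted p = 0.167). Valinomycin stood above DC3000 by 1.298 ± 0.30 (limma adjusted p = 0.00452). In the order of mean log2(FPKM + 1), both, valinomycin, DC3000, mock, that step was the one called between neighbours. In mean FPKM, valinomycin (18.85) stood just above both (18.45).

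**Figure D1:**
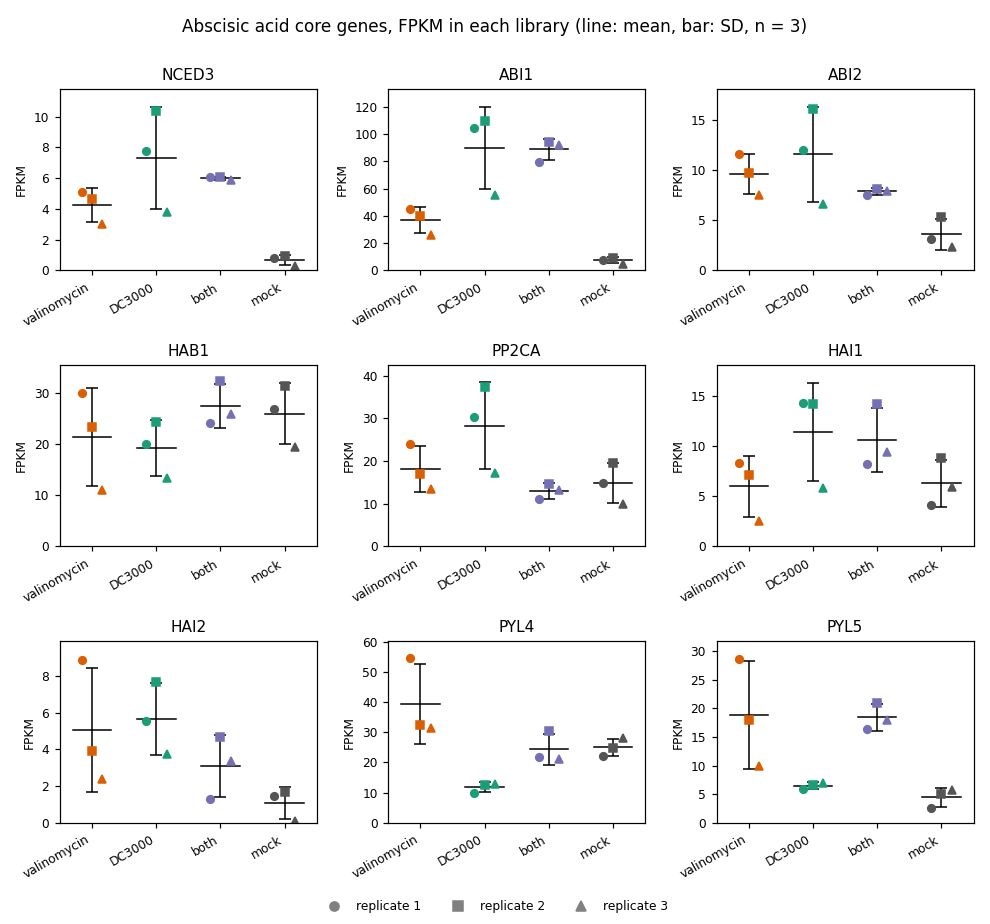
FPKM of the 9 genes in each of the 12 libraries by group (symbols: replicates 1 to 3; line: mean; bar: SD, n = 3). NCED3, ABI1 and ABI2 lie above mock in every treated library, PYL4 is lowest in the DC3000 libraries, and PYL5 is high in the libraries given valinomycin.

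Replicates of a group differed in the same direction for most of the genes. Valinomycin replicate 1 was the highest and replicate 3 the lowest of its group in all 9. DC3000 replicate 3 was the lowest of its group in 7 of 9, and the highest in the other 2, PYL4 and PYL5. Replicate 1 of both treatments was the lowest in 7 of 9, and mock replicate 3 in 6 of 9. The median-of-ratios size factors over all tested genes were 0.913, 1.003 and 0.735 for mock replicates 1 to 3. They were 1.072, 1.081 and 0.953 with DC3000, 1.044, 1.140 and 1.107 with valinomycin and 1.055, 1.018 and 0.986 with both. Mock and DC3000 replicates 3 were thus low over all genes too, unlike valinomycin replicate 3 and replicate 1 of both.

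Set against the whole table, the number of genes called was as follows. The core genes and the role lists below were chosen with earlier results of these data known. Their counts beside the shares of all genes are thus descriptions. With valinomycin 6 of 9 were called higher than mock (38.5% of all tested genes) and 0 lower (13.8% of all genes; 0 of the 9 also at an unadjusted limma p under 0.05). With DC3000 5 of 9 were called higher (31.6% of all genes) and 1 lower, PYL4 (17.2%). With both 4 of 9 were called higher (37.2% of all genes) and 0 lower (23.1%; 0 also at an unadjusted limma p under 0.05). The 4 genes called with both, NCED3, ABI1, ABI2 and PYL5, are close in share to the background of that comparison. The median log2 change of the 9 was 1.24 with valinomycin, 0.87 with DC3000 and 0.99 with both, and that of all tested genes was 0.27, 0.18 and 0.17 in the same comparisons.

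The libraries did not share a common median, and they were rescaled by median-of-ratios size factors as an alternative. The median change of all tested genes was then 0.004 with valinomycin, -0.010 with DC3000 and -0.004 with both treatments. Calls over all genes then split into 26.4% higher and 27.2% lower with valinomycin, 25.4% and 27.9% with DC3000, and 32.3% and 32.6% with both. Of the 9 genes 5, 5 and 4 were still called higher in these comparisons, with PYL4 the call lost with valinomycin, and PYL4 stayed the 1 called lower with DC3000. Scaling to an equal total over nuclear genes changed the split of DC3000 against mock to 24.6% higher and 20.5% lower, and changed none of the counts of the 9 against mock.

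**Figure D2:**
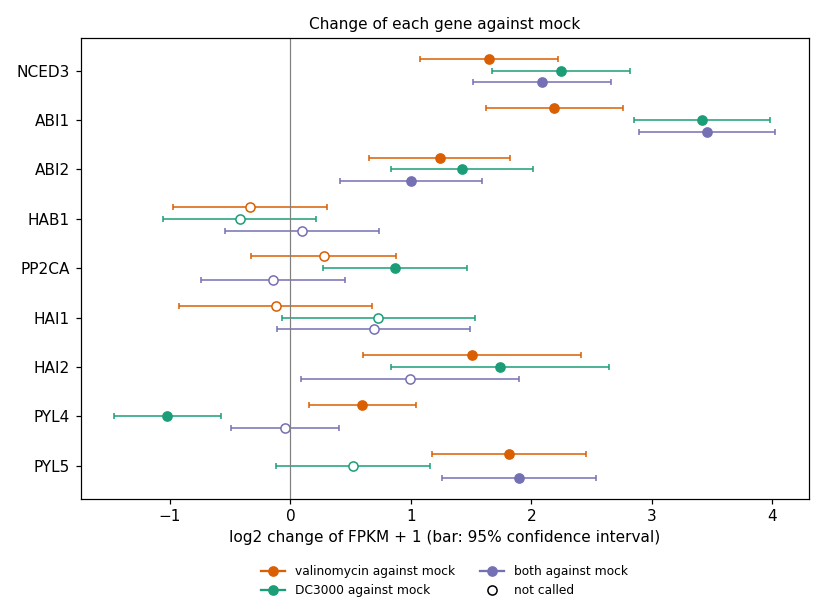
Log2 change of FPKM + 1 against mock for the 9 genes (point: estimate; bar: 95% confidence interval; filled: called by limma, open: not called). ABI1 is farthest to the right in all 3 treated groups, and PYL4 with DC3000 is the one filled point left of 0.

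Both treatments against DC3000 alone asks what valinomycin changed in infected seedlings. The receptor genes PYL4 and PYL5 were higher and PP2CA was lower, so 2 of 9 genes were called higher (14.1% of all tested genes) and 1 lower (13.5%). PYL4 averaged 24.4 ± 5.13 FPKM with both and 11.8 ± 1.66 with DC3000, a log2 change of 0.98 ± 0.21 (limma adjusted p = 0.00362). PYL5 averaged 18.5 ± 2.38 FPKM with both and 6.46 ± 0.607 with DC3000, a log2 change of 1.38 ± 0.30 (limma adjusted p = 0.00404). In both genes every library with both treatments lay above every DC3000 library. PP2CA averaged 12.97 ± 1.81 FPKM with both and 28.3 ± 10.2 with DC3000, a log2 change of -1.01 ± 0.28 (limma adjusted p = 0.0161), with no overlap between the groups. That call was lost without DC3000 replicate 1 (limma adjusted p = 0.0603), DC3000 replicate 2 (limma adjusted p = 0.0809) or replicate 1 of both (limma adjusted p = 0.0593).

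ABI1 and NCED3 were not called between both treatments and DC3000 alone. The log2 change of ABI1 was 0.04 ± 0.27 with a 95% interval of -0.53 to 0.61 (limma adjusted p = 0.919), and that of NCED3 was -0.16 ± 0.27 with an interval of -0.73 to 0.42 (limma adjusted p = 0.697). ABI2 had a log2 change of -0.43 ± 0.28 (limma adjusted p = 0.266) and was called without DC3000 replicate 3 (-0.75, limma adjusted p = 0.042). The median log2 change of the 9 genes was -0.04 and that of all tested genes -0.06. With nuclear totals made equal the split over all genes was 15.5% higher and 9.03% lower, with the same 2 and 1 of the 9. The mesophyll markers also differed in this comparison, with 3 of 5 called lower in both than in DC3000, and their part was not tested. The clock genes differed less than against mock, by a median absolute log2 change of 0.26. Of the 10, CCA1 (1.19, limma adjusted p = 0.00836) and PRR9 (0.64, limma adjusted p = 0.0373) were called higher and 0 lower. The part of the clock genes was not tested either.

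Both treatments against valinomycin alone asks what the bacterium changed in valinomycin-treated seedlings. ABI1 was higher, and was the 1 of 9 genes called higher (4.72% of all tested genes), with 0 called lower (10.4%; 1 of the 9, PYL4, at an unadjusted limma p under 0.05). ABI1 averaged 88.7 ± 7.94 FPKM with both and 37.1 ± 9.73 with valinomycin, a log2 change of 1.27 ± 0.27 (limma adjusted p = 0.00592), with no overlap. PYL4 averaged 24.4 ± 5.13 FPKM with both and 39.5 ± 13.2 with valinomycin, a log2 change of -0.64 ± 0.21 (limma adjusted p = 0.0516). PYL4 was called lower without valinomycin replicate 3 (-0.78, limma adjusted p = 0.0277) and without replicate 2 of both treatments (-0.80, limma adjusted p = 0.0348), which took the count of called genes to 2. PYL5 differed by 0.08 ± 0.30, with a 95% interval of -0.56 to 0.72 (limma adjusted p = 0.888). The median change of the 9 was 0.08 and that of all tested genes -0.12, and rescaling by size factors changed the split over all genes to 9.56% higher and 9.42% lower. In this comparison 4 of 5 mesophyll markers and the clock genes LHY and CCA1 were called lower, and their part was not tested.

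In valinomycin against DC3000, 2 of 9 genes were called higher (17.9% of all tested genes), PYL4 and PYL5, and 1 lower (8.18%), ABI1, with the values given above. The median of the 9 was -0.23 and that of all tested genes 0.06. Rescaling by size factors changed the split over all genes to 18.1% higher and 15.1% lower, with the same counts among the 9. Without DC3000 replicate 3, NCED3, PP2CA and HAI1 were also called lower, which made 6 called in all. PP2CA was then at -0.90 (limma adjusted p = 0.0229) and HAI1 at -1.24 (limma adjusted p = 0.0229). In valinomycin against DC3000, 5 of 10 clock genes and 1 of 5 mesophyll markers were called higher and 0 lower. Their part was not tested.

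The interaction, the valinomycin effect in the presence of DC3000 minus the effect without it, was negative in 5 genes. These were NCED3, ABI1, ABI2, PP2CA and HAI2, so 5 of 9 were called lower (19.4% of all tested genes) and 0 higher (5.25%; 0 also at an unadjusted limma p under 0.05). For ABI1 valinomycin added 0.04 with DC3000 and 2.19 without it on the log2 scale, an interaction of -2.15 ± 0.38 (limma adjusted p = 0.00109). For NCED3 it added -0.16 with DC3000 and 1.65 without it, an interaction of -1.81 ± 0.38 (limma adjusted p = 0.00386). The mean level of NCED3 with both treatments lay between the means with each alone, and neither difference was called. ABI2 had an interaction of -1.67 ± 0.39 (limma adjusted p = 0.00723) and HAI2 one of -2.26 ± 0.60 (limma adjusted p = 0.0142). For PP2CA it was -1.29 ± 0.40 (limma adjusted p = 0.0297), a call lost after rescaling by size factors (-0.96, limma adjusted p = 0.0674), with nuclear totals made equal (-1.17, limma adjusted p = 0.054), and without single libraries (limma adjusted p up to 0.085). Those were 8 of the 12, namely all but valinomycin replicate 3, DC3000 replicate 3, replicate 2 of both and mock replicate 2.

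The receptor genes PYL4 and PYL5 had no called interaction. That of PYL4 was 0.38 ± 0.30, with a 95% interval of -0.25 to 1.01 (limma adjusted p = 0.358), and that of PYL5 was -0.44 ± 0.42, with an interval of -1.34 to 0.47 (limma adjusted p = 0.472). HAB1 had 0.86 ± 0.42 (limma adjusted p = 0.15), which was called without valinomycin replicate 1 (1.14, limma adjusted p = 0.0466) and with a replicate block (limma adjusted p = 0.0497). The median interaction of the 9 genes was -1.29 and that of all tested genes -0.29. After rescaling by size factors the median of all genes was -0.006, the split over all genes 13.7% higher and 12.2% lower, and 4 of the 9 were called lower. With nuclear totals made equal the split was 6.07% higher and 13.2% lower. All 10 clock genes also had a called interaction, 3 higher and 7 lower, and their part in these values was not tested. In each treated group against mock they were 7 higher and 3 lower. The mock libraries enter the interaction, so it cannot be told apart from a shift of mock alone.

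**Figure D3:**
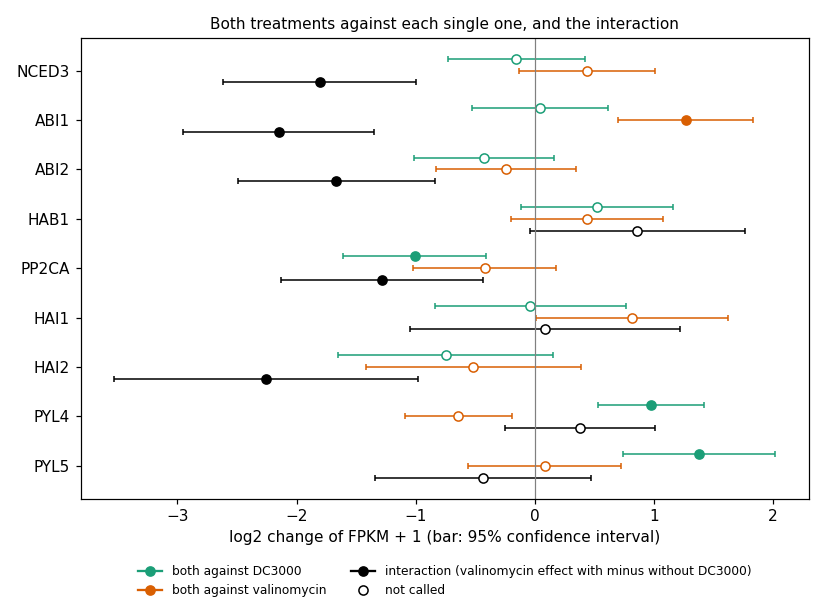
Log2 change of FPKM + 1 for both treatments against DC3000 and against valinomycin, and the interaction (point: estimate; bar: 95% confidence interval; filled: called by limma). The interaction points of NCED3, ABI1, ABI2, PP2CA and HAI2 lie left of 0, while PYL4 and PYL5 are right of 0 in both treatments against DC3000.

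Added up over the clade A phosphatase genes, mean levels were above mock in the treated groups, and valinomycin replicate 3 alone lay within the mock range. The 8 phosphatase genes with values, the 6 above with HAB2 and HAI3, summed to 109.8 ± 32.5 FPKM with valinomycin, 186.7 ± 60.2 with DC3000, 167.2 ± 17.3 with both and 71.5 ± 18.99 in mock. ABI1 made up 34.0%, 47.9% and 53.1% of that sum with valinomycin, DC3000 and both, and 10.2% in mock, while HAB1 made up 18.95%, 10.5% and 16.4% and 36.6% in mock. The 8 receptor genes with values summed to 219.1 ± 51.9 FPKM with valinomycin, 216.0 ± 17.5 with DC3000, 269.9 ± 12.7 with both and 138.8 ± 19.4 in mock. The groups of the receptor sum did not overlap mock. The ratio of the phosphatase sum to the receptor sum was 0.517, 0.519 and 0.451 in the valinomycin libraries, 0.928, 1.02 and 0.606 with DC3000 and 0.563, 0.646 and 0.648 with both, against 0.590, 0.558 and 0.392 in mock. DC3000 was thus the group with the highest ratio in every library but replicate 3, which lay within the range of both treatments. These sums are descriptions with no test.

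The make-up of the receptor sum also differed. PYL8, a receptor of another subfamily known for root responses to the hormone, made up 30.4% of it with valinomycin, 49.4% with DC3000 and 47.9% with both, and 18.98% in mock. PYL4 and PYL5 together made up 26.1%, 8.54% and 15.8%, and 21.4% in mock. The ratio of PYL4 to PYL5 was 2.29 ± 0.771 with valinomycin, 1.83 ± 0.118 with DC3000 and 1.32 ± 0.13 with both, against 6.24 ± 2.22 in mock. It was lower in every treated library than in any mock library.

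**Figure D4:**
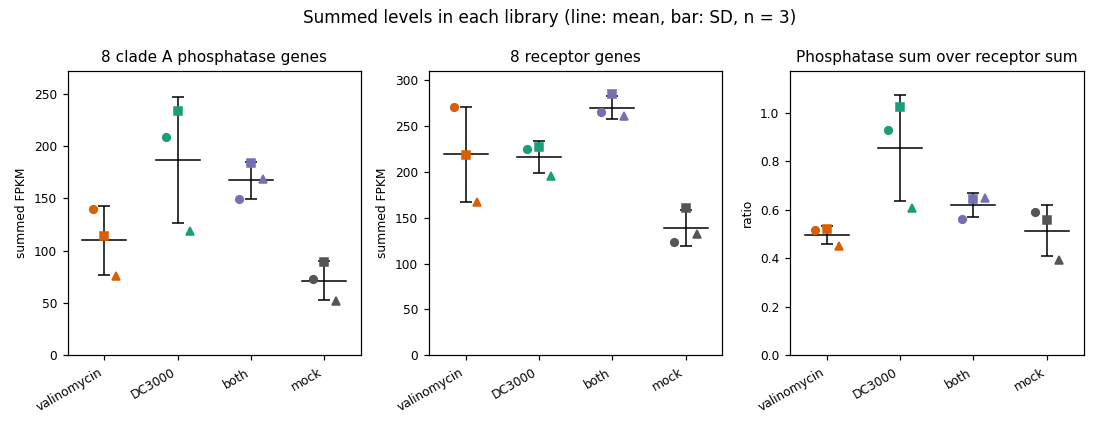
Summed FPKM of 8 clade A phosphatase genes, of 8 receptor genes, and their ratio, in each library by group (line: mean; bar: SD, n = 3; symbols: replicates 1 to 3). Receptor sums of all treated libraries lie above mock, and the ratio is highest in DC3000 replicates 1 and 2.

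The other genes of the pathway were read from lists by role. Of those named below, ABA2, AAO3, PYL7, SNRK2.3 and ABF1 share exon sequence with a gene on the opposite strand, with the same limit as ABI1. Their counts against mock stand beside the same shares of all tested genes as above, 38.5% higher and 13.8% lower with valinomycin, 31.6% and 17.2% with DC3000, and 37.2% and 23.1% with both. Of 5 tested synthesis genes beside NCED3, 2 were called higher and 1 lower with valinomycin, 2 and 2 with DC3000, and 2 and 1 with both, shares near those of all genes with valinomycin and with both. AAO3, the aldehyde oxidase of the last step, averaged 8.25 ± 1.88 FPKM with valinomycin, 4.14 ± 0.382 with DC3000, 7.12 ± 1.80 with both and 2.39 ± 0.711 in mock, and was called higher in all 3 treated groups. ABA3, which sulfurates the cofactor of AAO3, was called higher in all 3 as well, with log2 changes of 0.90, 0.66 and 1.12. ABA1, the zeaxanthin epoxidase upstream of NCED3, was called lower in all 3, with log2 changes of -0.99, -0.55 and -0.75. ABA2, a dehydrogenase acting after NCED3, was called lower with DC3000 and in neither other treated group (-0.46 ± 0.17, limma adjusted p = 0.0343).

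Of 7 tested genes that break down, conjugate or release the hormone, 3 were called higher and 0 lower with valinomycin (0 also at an unadjusted limma p under 0.05), 3 higher and 1 lower with DC3000, and 5 and 1 with both, and the share higher with valinomycin is near that of all genes. BGLU18, a glucosidase that frees abscisic acid from its glucose ester, averaged 48.7 ± 13.96 FPKM with valinomycin, 1657 ± 706.5 with DC3000, 775.4 ± 236.7 with both and 43.6 ± 8.95 in mock. CYP707A1, a hydroxylase that starts the breakdown of the hormone, averaged 3.57 ± 0.494, 7.78 ± 0.595 and 18.1 ± 3.36 FPKM with valinomycin, DC3000 and both, against 3.16 ± 1.36 in mock. CYP707A3, a second such hydroxylase, averaged 14.8 ± 5.45 FPKM with valinomycin, 2.11 ± 0.413 with DC3000, 12.7 ± 4.37 with both and 2.92 ± 0.325 in mock. Both treatments were above DC3000 alone in CYP707A1 (log2 change 1.105 ± 0.22, limma adjusted p = 0.00231) and CYP707A3 (2.096 ± 0.26, limma adjusted p = 8.46e-05). In that comparison 3 of the 7 genes were called higher and 2 lower, against 14.1% and 13.5% of all tested genes. The 2 lower were BGLU18 (-1.045 ± 0.32, limma adjusted p = 0.0273) and another CYP707A gene, CYP707A2 (-0.70 ± 0.23, limma adjusted p = 0.036). UGT71C5, which makes the glucose ester, was called higher with valinomycin (1.46 ± 0.17) and both (1.13 ± 0.17) and not with DC3000 (0.40 ± 0.17, limma adjusted p = 0.0732).

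Among the remaining signalling genes, HAB2, the other tested clade A phosphatase, was called higher with DC3000 (0.79 ± 0.17) and both (0.50 ± 0.17). HAI3 averaged under 1 FPKM and was not tested. Of 5 other tested receptor genes, PYL7 and PYL8 were called higher and PYL1 lower in each treated group. PYL8 averaged 66.2 ± 14.0 FPKM with valinomycin, 106.4 ± 4.33 with DC3000, 129.0 ± 6.46 with both and 26.5 ± 6.25 in mock. PYL7 averaged 20.1 ± 7.43, 32.9 ± 10.7 and 34.0 ± 4.71 FPKM with valinomycin, DC3000 and both, against 5.59 ± 1.21 in mock. Of 8 kinase and bZIP genes 5 were called higher with valinomycin, 6 with DC3000 and 5 with both, and 0, 1 and 1 were called lower (limma; 1 of the 8 lower with valinomycin at an unadjusted p under 0.05). SNRK2.3, one of the kinases the phosphatases hold inactive, averaged 36.7 ± 2.93 FPKM with valinomycin, 29.5 ± 2.04 with DC3000, 34.4 ± 0.52 with both and 5.34 ± 1.01 in mock. ABF1, a bZIP factor the kinases activate, averaged 22.02 ± 6.22, 27.8 ± 2.61 and 18.9 ± 0.109 FPKM with valinomycin, DC3000 and both, against 2.16 ± 0.466 in mock. ABI5 and SNRK2.2 were called higher in all 3 groups as well, with log2 changes of 1.65 to 2.04.

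Of 4 transporters of the hormone, 3 were called higher and 1 lower with valinomycin, 2 and 0 with DC3000 (0 lower also at an unadjusted limma p under 0.05), and 3 and 1 with both. ABCG40, an importer at the plasma membrane, averaged 7.18 ± 3.13 FPKM with valinomycin, 0.285 ± 0.0427 with DC3000, 14.7 ± 9.79 with both and 0.286 ± 0.195 in mock, and valinomycin stood above DC3000 by a log2 change of 2.58 ± 0.35 (limma adjusted p = 6.33e-05). DTX50, an exporter, averaged 31.4 ± 18.1, 7.11 ± 0.771 and 24.0 ± 10.6 FPKM with valinomycin, DC3000 and both, against 1.52 ± 0.664 in mock, and was called higher in all 3. Valinomycin stood above DC3000 in DTX50 by 1.82 ± 0.38 (limma adjusted p = 0.0022), and in NPF4.6 the difference was 0.36 ± 0.16 (limma adjusted p = 0.117). NPF4.6, an importer, was called higher in all 3 treated groups, and ABCG25, an exporter, was called lower with valinomycin (-0.75 ± 0.16) and both (-0.68 ± 0.16). ABCG25 was also called lower with valinomycin than with DC3000 (-0.49 ± 0.16, limma adjusted p = 0.0325). In valinomycin against DC3000, 2 of the 4 were called higher and 1 lower, against 17.9% and 8.18% of all tested genes.

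Of 11 genes known to respond to abscisic acid, 5 were called higher and 1 lower with valinomycin, 7 and 0 with DC3000 (0 lower also at an unadjusted limma p under 0.05), and 3 and 3 with both. The shares with valinomycin and with both are near those of all genes. RD26, a NAC transcription factor, averaged 30.6 ± 10.98 FPKM with valinomycin, 206.7 ± 62.9 with DC3000, 148.7 ± 13.3 with both and 10.5 ± 3.47 in mock. RD20, a caleosin, averaged 39.4 ± 17.5, 393.4 ± 129.2 and 163.8 ± 14.2 FPKM with valinomycin, DC3000 and both, against 19.8 ± 8.68 in mock. RD29A, a hydrophilic protein of dry and cold tissue, averaged 87.8 ± 20.7, 115.5 ± 38.8 and 47.4 ± 8.01 FPKM in the same groups, against 19.9 ± 13.1 in mock. RD29B, its neighbour in the genome, stood at 0.0353, 0.138 and 0.227 FPKM with both treatments, against 7.82, 15.8 and 4.504 FPKM in mock. It was called lower with both (-3.05, limma adjusted p = 0.00282). Its libraries spread widely in the other groups, at 2.34, 0.502 and 8.56 FPKM with valinomycin and 0.721, 21.6 and 5.76 with DC3000. Neither was called against mock (-1.365, limma adjusted p = 0.1395, and -0.546, limma adjusted p = 0.5685). In both treatments against DC3000 alone 9 of these 11 genes were called lower and 0 higher (0 also at an unadjusted limma p under 0.05), against 13.5% and 14.1% of all tested genes, with RD29A, RD29B and RD20 among the 9. NCED3 and ABI1 were not called in that comparison.

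**Figure D5:**
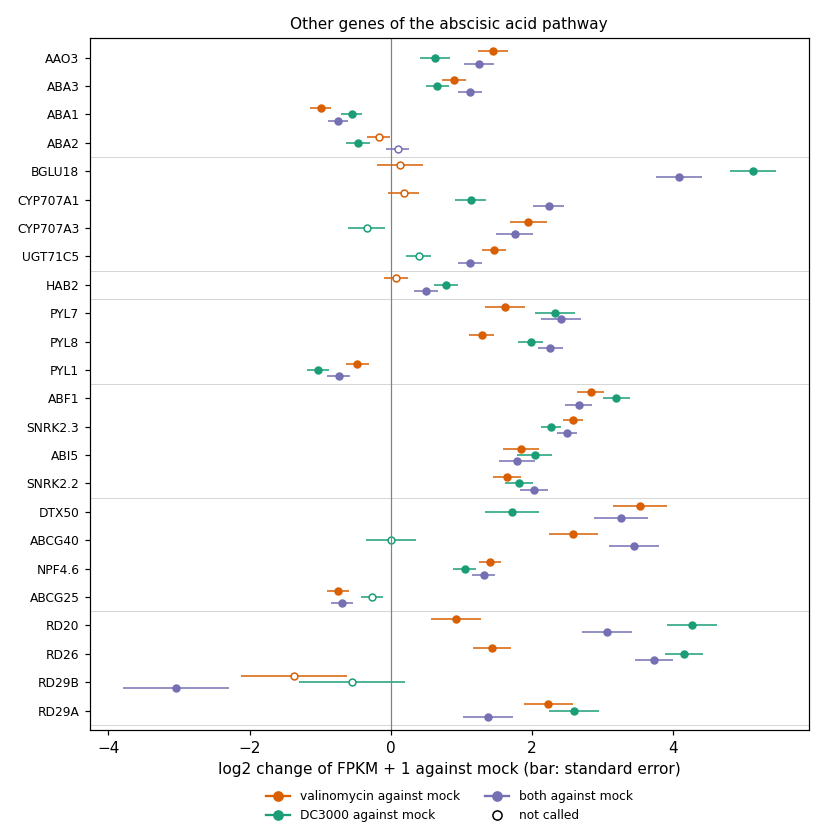
Log2 change of FPKM + 1 against mock for the other pathway genes named by rule, grouped by role (point: estimate; bar: standard error; filled: called by limma). BGLU18, RD20 and RD26 are farthest right with DC3000, and ABCG40 and DTX50 are right of 0 with valinomycin and both.

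The genes whose pattern over the 12 libraries was most like that of a member were found by Pearson's r of log2(FPKM + 1), given as a description over libraries that share groups. For NCED3 they were VAP27-2 (AT1G08820, r = 0.993), AT3G04560 (r = 0.988) and FRA3 (AT1G65580, r = 0.986). For HAI1 they were HAT22 (AT4G37790, r = 0.904), AT3G17800 (r = 0.893) and AT1G74440 (r = 0.889). For PYL4 they were GSTU13 (AT1G27130, r = 0.979), HSFA7A (AT3G51910, r = 0.97) and AT2G08475 (r = 0.967). None of the 9 genes had another of the 9 among its 3 most alike.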

How the data were processed

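Per the labels' protocols, an RNeasy Plant Mini kit gave the RNA and a CORALL total RNA-seq kit the libraries. The submitters' processing notes name TAIR10 as the genome build. How reads were aligned and quantified, whether strand was used, and the depth: not given in the sources used here. As deposited by the authors, the table gives 1 normalized value per gene and library, with no unit stated. FPKM was inferred from the deposited values, since the library totals differ (1057472 to 1350272) and lie above the total that a table in TPM has. Low values multiplied by transcript length fell only weakly on steps (a concentration of 0.105 to 0.176 on a scale from 0 to 1), so no reads were recovered. No value in the table is 0, and genes without a row were not analysed here.

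The scale of all tests was log2(FPKM + 1), with a pseudocount of 1. The 18048 genes whose mean reached 1 FPKM entered 1 model of group means over all 12 libraries in limma 3.58.1 (R 4.3.3), with 8 residual degrees of freedom and a variance trend. P-values were adjusted over all tested genes, in 7 comparisons. Coordinates and promoters are those of TAIR10.1 (RefSeq), where each of the table's 20054 nuclear loci has an entry. Of 35 genes named by rule from the core and role lists, 0 had a copy of at least 95% identity over 50% of the transcript. Copies were searched with blastn 2.17.0. An exon overlap on the opposite strand was found for 6 of the 35, of which ABI1 is 1 of the 9 core genes. The markers GC1, PYK10, CASP1 and XCP1, outside the 35, also have such an overlap, with the same limit. PHT1.1, a marker outside the 35, has a copy by the rule above, AT5G43370.

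The core genes and the lists were chosen with earlier results of these data known. Up to 4 genes of each role list are named by rule, those called against mock with the largest change in any treated group, and where fewer than 2 are called the 2 with the highest mean. CYP707A2 is named besides. Patterns most alike are printed for 1 gene of each role. Marker genes were used as values only. Alternatives were other pseudocounts, filters and scalings, a replicate block, only the compared groups in the fit, no trend, and leaving out each library in turn.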

Additional observations from a re-analysis of the deposited data

Results flagged for a closer look

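In 5 of the 9 genes limma called the interaction, the effect of valinomycin with DC3000 minus that without it. The mock libraries enter this contrast, so a shift of mock alone gives an interaction of opposite sign to the changes against mock. An interaction of the treatments and such a shift cannot be told apart here. All 5 were called lower, as were 19.4% of all tested genes (12.2% after rescaling by size factors, 13.2% with nuclear totals made equal), and all 10 clock genes also had a called interaction. The effect with DC3000 minus that without it was -1.81 for NCED3 (limma adjusted p = 0.00386), -2.15 for ABI1 (limma adjusted p = 0.00109) and -1.67 for ABI2 (limma adjusted p = 0.00723) on the log2 scale. It was -1.29 for PP2CA (limma adjusted p = 0.0297) and -2.26 for HAI2 (limma adjusted p = 0.0142). Of the 5, PP2CA lost its call after either rescaling of the libraries and without any of 8 single libraries.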

How the results depend on the processing

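Over 1300 values of the 9 genes under alternatives, 1257 kept their direction and side of the threshold or were called in neither, 22 were newly called, 21 lost their call and 0 reversed a call. The lost and new calls fell in 14 pairs of gene and comparison, and 30 values changed sign with no call on either side. Both treatments against valinomycin called 1 gene, and 2 under a filter of mean FPKM at least 5 and with nuclear totals made equal (1 to 2 with each library left out). Valinomycin against DC3000 called 3, and 3 to 6 with each library left out. The interaction called 5, and 3 under the filter of at least 5, which removes NCED3 and HAI2 from the test. With a pseudocount of 0.1 and of 5, the log2 change of NCED3 with valinomycin was 2.58 and 0.70, and that of HAI2 2.47 and 0.69, both still called. A fit of only the compared groups called HAI1 with DC3000 (limma adjusted p = 0.0264). With both it called HAI1 (limma adjusted p = 0.0108) and HAI2 (limma adjusted p = 0.00506), so that 6 genes were called there.

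Same-numbered libraries were not generally alike: 3 of 18 of their correlations were over 0.1, and 5 of 18 were best with their own number. The highest was 0.439, for replicates 3 of valinomycin and of both treatments. With 3 libraries a group, this check cannot exclude a pairing by replicate number. With the replicate block 6, 6 and 5 genes were called against mock with valinomycin, DC3000 and both, 3 in both treatments against DC3000, 1 against valinomycin, 4 in valinomycin against DC3000 and 6 in the interaction. NCED3 was then called lower with valinomycin than with DC3000 (limma adjusted p = 0.0437). Since the depth is unknown, the precision of low values such as NCED3 and HAI2 in mock cannot be given.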
